A study of Ovis aries with 27 samples.

Results

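The genes described here are CD3D, CD3E and CD247, which encode chains of the T cell receptor complex, CXCR4, a chemokine receptor of lymphocytes and other cells, and IFNG, a cytokine of activated lymphocytes. Their probes were found by gene name, RefSeq accession or description among the probes of a sheep array, and each of the 5 genes had 2 probes, so that 10 of the 15008 probes and 5 of the 850 genes of the array that could be named are described. RNA came from the septum, the wall of muscle that parts the ventricles of the heart, of 27 fetal sheep, with 1 array per fetus. Their ewes were infused with cortisol, a glucocorticoid hormone, at 1 mg/kg/day, or, as controls, with vehicle. The groups were cortisol at 140 d of gestation (n = 7), control at 140 d (n = 8), cortisol at 130 d (n = 6) and control at 130 d (n = 6). The older fetuses were sampled at 139 to 144 d after about 25 days of infusion from about day 115, and the younger ones at 129 to 131 d after about 10 days from about day 120. Another label gives a start at about day 115 for all ewes. The ages were separate cohorts with infusions of different length, so a difference between the ages cannot be told apart from one of cohort or of infusion. Of the 8 older controls 2 were twins, and the labels do not say which. The comparisons ask how maternal cortisol affects fetal septum transcripts at each age, and how levels differ between the ages with cortisol and in controls.

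T cells recognise antigen through a receptor of variable alpha and beta, or gamma and delta, chains, which have almost no cytoplasmic part of their own. The invariant CD3 chains and the zeta chain, encoded by CD247, carry the tyrosine motifs that the kinase LCK phosphorylates to start signalling. T cells that have been activated release interferon gamma, the product of IFNG, which acts on target genes such as IRF1 and CXCL10. Glucocorticoids are known as inhibitors of T cell activation and cytokine release. The septum is bulk tissue, so fewer cells of a type and less RNA per cell cannot be told apart in any of the values below.

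The probe sequences show which probes of a gene read the same stretch and which are separate measurements. They are given 5′ to 3′ as the scanner files hold them, and capitals mark bases that both probes of a gene share. The CXCR4 probes are shown whole because 57 of their 60 bases are shared, so they are nearly 1 measurement. The array lists this gene as NPY3R, an older symbol of CXCR4 in the RefSeq table.
CXCR4 probe 1: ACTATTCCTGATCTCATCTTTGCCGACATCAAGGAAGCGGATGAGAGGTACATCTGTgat
CXCR4 probe 2: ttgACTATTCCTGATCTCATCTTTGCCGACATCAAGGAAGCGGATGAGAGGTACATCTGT

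For CD3D and CD247 a shared stretch of 30 bases is shown. It is all that the CD3D probes share, and the first part of the 40 bases that the CD247 probes share. The array lists CD3D as LOC443397, which its RefSeq accession names.
CD3D probes 1 and 2, shared: TCTTTAGTACCCATTTCCCTGTATAGAAGG
CD247 probes 1 and 2, shared: TGTAACATTTGGTCATACCCAGTTCCAAAC

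The 2 probes of CD3E, and likewise those of IFNG, share no stretch, and the first 30 bases of each are shown to identify them. No other probe of the array has the sequence of any of these 10.
CD3E probe 1: gatggtcatttgtagctccatgaatgtgct
CD3E probe 2: tattccacctacctttctctgtttctagct
IFNG probe 1: ctaagactaactaggcaagtctatggattt
IFNG probe 2: cggagagcatcaatgtaatggttctcctgc

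Between 77.0% and 87.0% of the spots of an array were well above background by the scanner software's flag, and 0 spots were saturated. Levels are given on a log2 scale relative to the 75th percentile of intensity on the same array, so a negative level lies below that percentile. Arrays differed in brightness by age, with a 75th percentile of 884 ± 149 with cortisol and 838 ± 59.3 in controls at 140 d, against 1093 ± 77.0 with cortisol and 1160 ± 101 in controls at 130 d (SD). Myoglobin (MB), a cardiomyocyte gene, stood at 182 to 456 times the 75th percentile over the 4 groups, and was the only gene of its list of 13 that was named on the array.

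Both CD3 chains, CD247 and CXCR4 were detected in septum at low levels in nearly every fetus. CD3D probe 1 and CD247 probe 2 were well above background on 25 of 27 arrays and the other 6 probes of these genes on all 27. IFNG was different, since probe 2 was well above background on 27 of 27 arrays and probe 1 on 0 of 27. The 9 probes other than IFNG probe 1 were tested among 12770 probes with limma, and called where the Benjamini-Hochberg adjusted p was under 0.05.

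**Figure D1:**
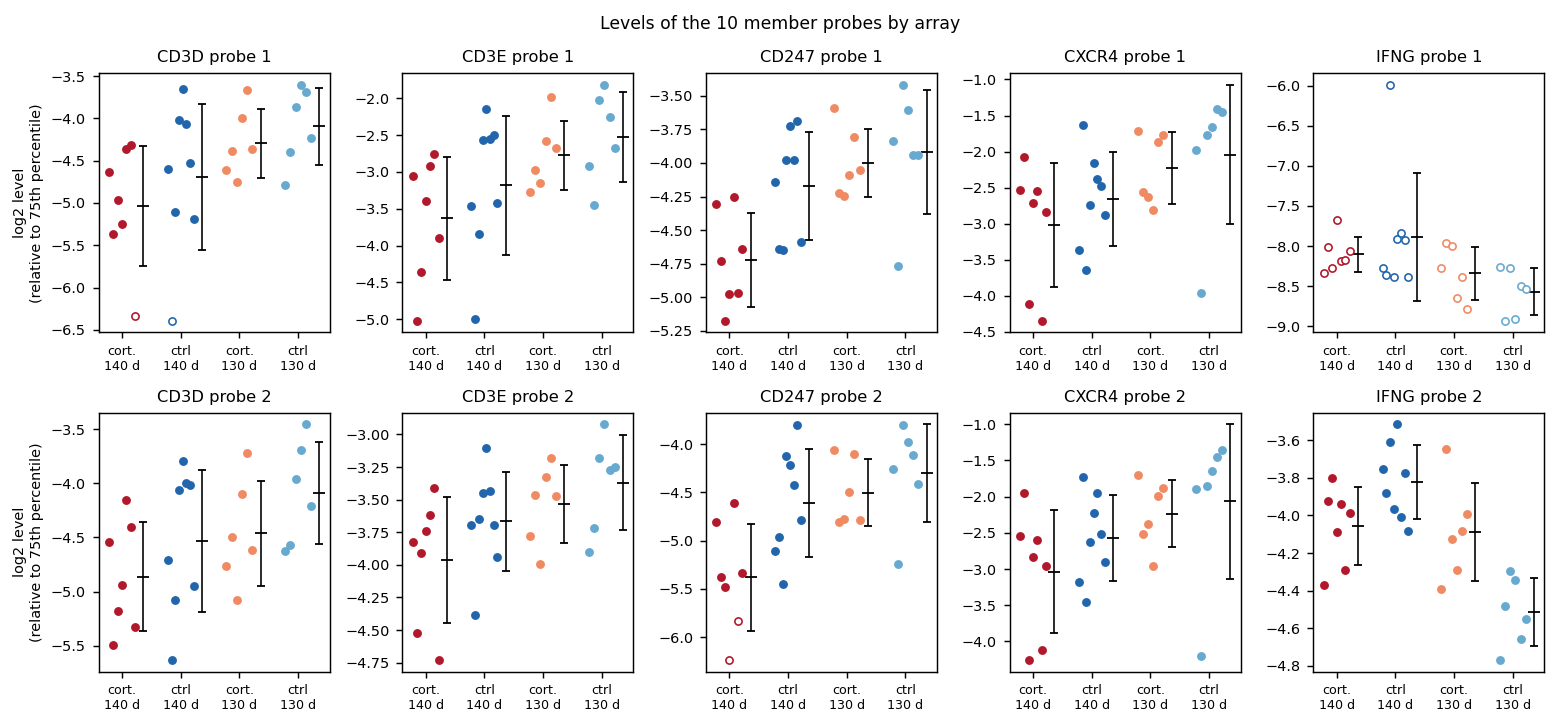
Levels of the 10 member probes on each array (y axis, log2 relative to the array's 75th percentile) in cortisol (cort.) and control (ctrl) fetuses at 140 d and 130 d. Filled points were well above background and open ones were not, and bars are the mean ± SD. The groups overlap widely for CD3D, CD3E and CXCR4, while IFNG probe 2 has all 8 controls at 140 d above all 6 controls at 130 d.

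CD3E encodes the epsilon chain of CD3. CD3E probe 1 ranged from -5.02 to -2.76 with a median of -3.40 in cortisol fetuses at 140 d, and from -5.00 to -2.14 with a median of -2.99 in controls at 140 d. At 130 d it ranged from -3.28 to -1.98 with a median of -2.82 in cortisol fetuses, and from -3.45 to -1.82 with a median of -2.46 in controls. The lowest arrays of both older groups lay well below any younger array, while the highest older arrays lay within the younger range, so the groups overlapped in every comparison. The spread at 140 d was also wide, with an SD of 0.83 with cortisol and 0.94 in controls, against 0.47 with cortisol and 0.61 in controls at 130 d.

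The log2 differences of CD3E probe 1 did not pass the test in any comparison. The largest was between the ages with cortisol, -0.86 ± 0.40 (SE, adjusted p = 0.161), and between the ages in controls it was -0.66 ± 0.39 (SE, adjusted p = 0.243). Cortisol against control gave -0.45 ± 0.37 at 140 d (SE, adjusted p = 0.808) and -0.25 ± 0.42 at 130 d (SE, adjusted p = 1.00). CD3E probe 2, which reads a separate stretch, had the same sign and smaller sizes, -0.43 ± 0.21 between the ages with cortisol and -0.30 ± 0.20 in controls (SE, adjusted p = 0.181 with cortisol and 0.326 in controls).

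CD3D encodes the delta chain of CD3. CD3D probe 2 ranged from -5.49 to -4.15 with a median of -4.94 in cortisol fetuses at 140 d, and from -5.63 to -3.79 with a median of -4.39 in controls at 140 d. At 130 d it ranged from -5.07 to -3.72 with a median of -4.56 in cortisol fetuses, and from -4.63 to -3.45 with a median of -4.09 in controls. All 4 groups overlapped, and 4 of the 8 older controls lay below every younger control. Its differences were -0.33 ± 0.27 for cortisol against control at 140 d, -0.38 ± 0.30 at 130 d, -0.40 ± 0.29 between the ages with cortisol and -0.44 ± 0.28 in controls (SE), with adjusted p between 0.280 and 1.00. CD3D probe 1 was not well above background on 1 array of each older group and gave -0.74 ± 0.35 between the ages with cortisol (SE, adjusted p = 0.169).

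CD247 encodes the zeta chain, the main signalling chain of the receptor. CD247 probe 1 ranged from -5.17 to -4.25 with a median of -4.73 in cortisol fetuses at 140 d, and from -4.65 to -3.69 with a median of -4.06 in controls at 140 d. In the younger cortisol fetuses it ranged from -4.24 to -3.59 with a median of -4.07, and in the younger controls from -4.77 to -3.42 with a median of -3.89. All 7 cortisol fetuses at 140 d lay below all 6 cortisol fetuses at 130 d, with the highest older array at -4.25 and the lowest younger one at -4.24. They also lay below the mean of the controls at 140 d, and 4 of the 7 lay below every one of those controls.

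CD247 fell between the ages in the cortisol arm. The difference of probe 1 was -0.72 ± 0.20 in log2 level (SE, adjusted p = 0.0198), a level 1.65-fold lower at 140 d, and that of probe 2 was -0.88 ± 0.27 (SE, adjusted p = 0.0314), or 1.84-fold lower. CD247 probe 2 was well above background on 5 of 7 arrays of cortisol fetuses at 140 d. These were the 2 of 9 member probes called in this comparison, where 13.5% of all tested probes were called and 8.52% were called lower, and as they share 40 bases they count as 1 gene. Only probe 1 had groups that did not overlap, as had 3.16% of all tested probes with the older group lower.

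The call was sensitive to the scaling and to the background correction of the arrays. With quantile normalization the difference of CD247 probe 1 was -0.59 (adjusted p = 0.0784) and that of probe 2 was -0.72 (adjusted p = 0.121), and with normexp background correction they were -0.37 (adjusted p = 0.771) and -0.31 (adjusted p = 0.918). Normexp was run with an offset of 50 added to each intensity, and group means of CD247 intensity lay between 23.1 and 81.3. How far the offset alone changed these differences was not tested. Without cortisol 130 d replicate 1, the array with the highest CD247 of its group, probe 1 had -0.64 (adjusted p = 0.0555). With slide as a fixed block probe 1 had -0.80 ± 0.21 (SE, adjusted p = 0.0160), and within the slides that hold both groups it had -1.04 on slide 2, -0.45 on slide 3 and -1.04 on slide 4, where 2 arrays or fewer of a group remain and the smallest adjusted p was 0.0782.

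In controls the same age difference of CD247 was -0.26 ± 0.20 for probe 1 and -0.31 ± 0.26 for probe 2 (SE, adjusted p = 0.382 and 0.439). The passing difference in the cortisol arm and the one not passing in controls were not shown to differ. The test of that difference, which is also that of the cortisol effect at 140 d against the effect at 130 d, gave -0.46 ± 0.28 for probe 1 and -0.57 ± 0.38 for probe 2 (SE, adjusted p = 0.962 and 0.974).

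Cortisol against control at 140 d gave the largest values of the cortisol comparisons for CD247, -0.55 ± 0.19 for probe 1 (SE, 95% confidence interval -0.94 to -0.16, unadjusted p = 0.00777) and -0.77 ± 0.25 for probe 2 (SE, unadjusted p = 0.00507), and both missed the threshold over all probes (adjusted p = 0.808). With slide as a fixed block probe 1 had -0.58, and within slides 2, 3, 4 and 5 it had -0.56, -0.30, -1.24 and -0.55. Slides 4 and 5 each held 1 array of cortisol fetuses at 140 d, and slide 4 also held only 1 control at 140 d. With normexp the values were close to 0, -0.10 for probe 1 and -0.05 for probe 2.

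CXCR4 encodes the receptor of the chemokine CXCL12, which guides lymphocytes, blood stem cells and vessel growth. CXCR4 probe 1 ranged from -4.34 to -2.07 with a median of -2.71 in cortisol fetuses at 140 d, and from -3.64 to -1.63 with a median of -2.60 in controls at 140 d. In cortisol fetuses at 130 d it ranged from -2.81 to -1.71 with a median of -2.21. In controls at 130 d 5 of 6 arrays lay between -1.98 and -1.41, and replicate 2 stood far below them at -3.96, as it did for probe 2 at -4.20.

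No CXCR4 difference passed the test with all arrays. Probe 1 gave -0.80 ± 0.40 between the ages with cortisol (SE, adjusted p = 0.195), -0.62 ± 0.39 in controls (SE, adjusted p = 0.278), -0.36 ± 0.37 for cortisol against control at 140 d (SE, adjusted p = 0.829) and -0.18 ± 0.42 at 130 d (SE, adjusted p = 1.00). The control age difference turned on replicate 2 of the younger controls. Without it the difference was -1.0 for probe 1 (adjusted p = 0.0388) and -0.93 for probe 2 (adjusted p = 0.0435), both past the threshold. The same array left out moved the value for cortisol against control at 130 d to -0.57 for probe 1, which did not pass.

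**Figure D2:**
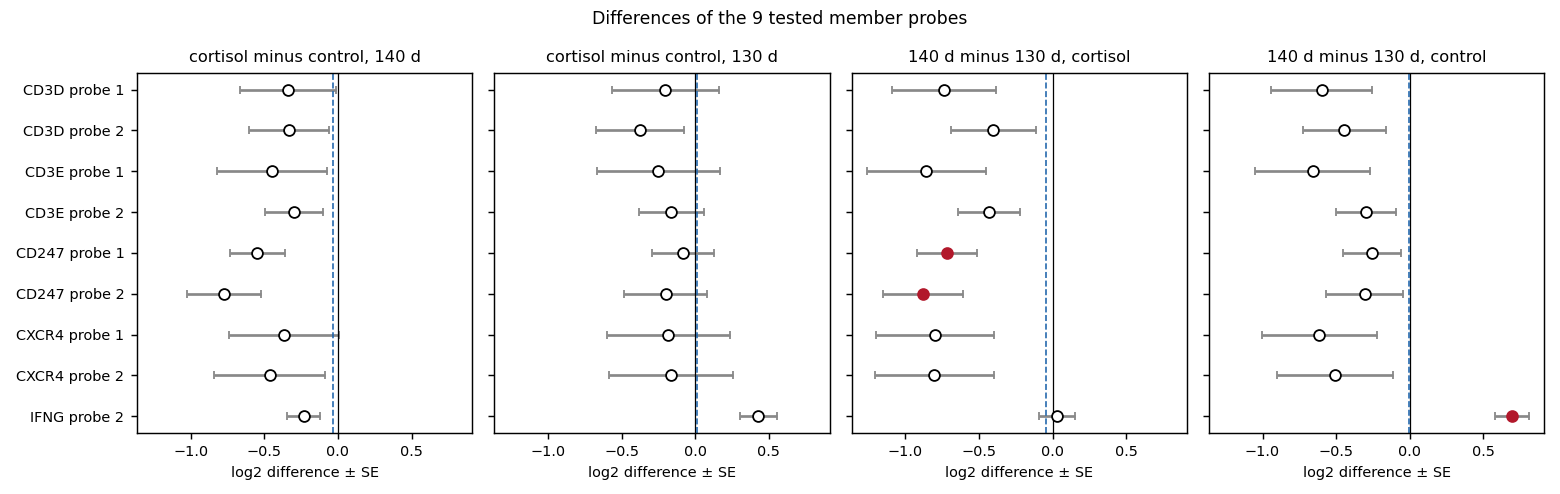
Log2 differences ± SE (x axis) of the 9 tested member probes in the 4 comparisons between groups. Filled red points passed the threshold, the solid line is 0 and the dashed line is the median of all 12770 tested probes. All 8 probes of CD3D, CD3E, CD247 and CXCR4 lie left of 0 in each panel, and only CD247 in the cortisol arm and IFNG in controls passed.

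Taking the 8 probes of CD3D, CD3E, CD247 and CXCR4, the sign was negative for 8 of 8 in each of the comparisons between groups. Over all tested probes 58.7% were negative for cortisol against control at 140 d, 46.7% at 130 d, 56.2% between the ages with cortisol and 50.9% in controls. The median difference of the 8 probes was -0.41, -0.19, -0.77 and -0.48 in that order, against -0.04, 0.01, -0.04 and -0.01 over all tested probes. These 4 comparisons share their groups and the 8 probes belong to 4 genes, so the signs are not separate observations. With normexp background correction the median of all probes was 0.20 for cortisol against control at 130 d and 0.15 between the ages in controls, and all 8 were positive at 130 d and 5 of the 8 in the control age comparison.

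Maternal cortisol itself gave 0 calls at either age. For cortisol against control limma called 0 of 9 member probes and 0% of all tested probes, both at 140 d and at 130 d. At an unadjusted p under 0.05 there were 3 of 9 member probes and 726 of all tested probes (5.69%) at 140 d, the members being both CD247 probes and IFNG probe 2. At 130 d there were 1 of 9, IFNG probe 2, and 455 of all tested probes (3.56%). The cortisol effect at 140 d minus that at 130 d also had 0 calls (0%), with 743 of all tested probes (5.82%) and 1 member, IFNG probe 2, under the unadjusted level.

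IFNG probe 2 had a pattern of its own. It ranged from -4.37 to -3.80 with a median of -3.99 in cortisol fetuses at 140 d, and from -4.08 to -3.51 with a median of -3.83 in controls at 140 d. At 130 d it ranged from -4.39 to -3.65 with a median of -4.11 in cortisol fetuses, and from -4.77 to -4.30 with a median of -4.52 in controls. The younger controls had the lowest median, and every older control lay above every younger control. Both cortisol groups overlapped the younger controls, the older controls and each other.

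IFNG probe 2 rose between the ages in controls by 0.69 ± 0.12 in log2 level (SE, adjusted p = 0.000379), which is 1.62-fold. It was the 1 of 9 member probes called in this comparison, where 19.1% of all tested probes were called, 9.77% higher and 9.35% lower, and 3.52% had groups that did not overlap with the older one higher. With slide as a fixed block the difference was 0.74, and within slides 2, 3 and 4 it was 0.81, 0.53 and 1.09, none of which passed alone, with 1 older control on slide 4. With normexp it was of the same size and did not pass, 0.67 (adjusted p = 0.221).

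In the cortisol arm the age difference of IFNG probe 2 was 0.03 ± 0.12 (SE, adjusted p = 0.899). Cortisol fetuses at 130 d had a level 0.43 ± 0.13 above their controls (SE, unadjusted p = 0.00219, adjusted p = 0.878), and all 6 lay above the control mean. At 140 d cortisol against control gave -0.23 ± 0.11 (SE, unadjusted p = 0.0484, adjusted p = 0.808). The test of the difference between these effects gave -0.66 ± 0.17 (SE, unadjusted p = 0.000587), which did not pass over all probes (adjusted p = 0.258).

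Before scaling, the intensities of IFNG probe 2 differed less between the ages in controls, and more between the ages with cortisol. They were 53.7 ± 12.5 in cortisol fetuses and 59.6 ± 8.11 in controls at 140 d, against 64.6 ± 8.30 in cortisol fetuses and 51.2 ± 9.24 in controls at 130 d (SD). The older controls, at 48.7 to 72.1, then overlapped the younger ones, at 42.0 to 64.8. In controls the mean log2 intensity was 0.23 higher at 140 d and the mean log2 of the 75th percentile was 0.47 lower. These add up to the scaled difference of 0.69. With cortisol the mean log2 intensity was 0.29 lower at 140 d and that of the 75th percentile 0.32 lower, which left the scaled 0.03. IFNG probe 1 was not well above background on any array, with intensities of 2.00 to 13.8, and carries no measured level. The IFNG probes thus differ in detection, and whether the signal of probe 2 comes from IFNG transcript was not tested.

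**Figure D3:**
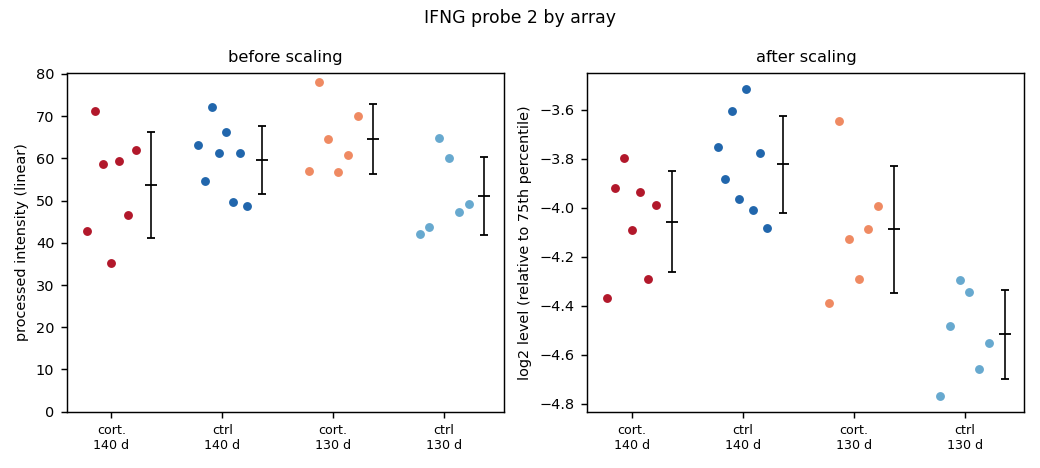
IFNG probe 2 on each array as processed intensity before scaling (left, linear axis from 0) and as log2 level relative to the array's 75th percentile (right), in cortisol (cort.) and control (ctrl) fetuses, with mean ± SD. Controls at 140 d and 130 d overlap before scaling and are separate after it.

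IFNG probe 1 differed in an exact permutation test of its near-background values between the ages in controls, by 0.69 (two-sided exact p = 0.0127), and in none of the other comparisons (exact p = 0.695 for cortisol against control at 140 d, 0.227 at 130 d and 0.159 between the ages with cortisol). No value of it was above background in either group, so no change of IFNG is drawn from it.

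Both target genes of interferon gamma named above fell between the ages in controls. Of 21 genes of its signalling and targets described here, 3 were on the array and tested, and 2 of the 3 fell in that comparison, where 9.35% of all tested probes were called lower. CXCL10, a chemokine that attracts activated T cells, averaged -4.94 ± 1.53 in controls at 140 d and -0.45 ± 2.14 at 130 d (SD), a difference of -4.49 ± 0.91 (SE, adjusted p = 0.00159). IRF1, a transcription factor of the response, fell by 1.66 ± 0.37 in log2 level (SE, adjusted p = 0.00363). PSMB8, an immunoproteasome subunit, had -0.78 ± 0.36 (SE, adjusted p = 0.129). The median of the 3 was -1.66, against -0.01 over all tested probes. CXCL10 in the younger controls spread from -2.21 to 3.39, and it was well above background on 6 of the 8 older controls.

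In the other comparisons 0 of these 3 genes passed, and the smallest p belonged to IRF1 for cortisol against control at 130 d (-1.26, adjusted p = 0.988) and at 140 d (0.84, adjusted p = 0.808), and to CXCL10 between the ages with cortisol (-1.71, adjusted p = 0.233). IRF1 thus had the sign opposite to IFNG probe 2 in both cortisol comparisons.

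Across arrays CD3D and CD3E varied together. Over the 27 arrays the probes of highest mean of these genes had a Pearson r of 0.93 and a Spearman rho of 0.95, and after each group's mean was taken away r was 0.92. CD247 followed CD3E less closely (r = 0.73, and 0.64 without group means). CXCR4 had r = 0.70 with CD247 and 0.31 with CD3E, and rho of 0.68 with CD247 and 0.45 with CD3E. Without group means these were r = 0.61 and rho = 0.44 for CD247, and r = 0.11 and rho = 0.12 for CD3E. Replicate 2 of the controls at 130 d, far below its group for CXCR4, is among these arrays. IFNG probe 2 had r between -0.29 and -0.22 with the 4 other genes, and between -0.11 and -0.01 without group means. All values of an array share its scaling and its RNA, so these correlations are descriptions and have no p.

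The probes of a gene also tracked each other, with r of 0.98 for CXCR4, 0.93 for CD247 and 0.91 for CD3D, which share bases, and 0.86 for CD3E, which do not. For IFNG r was 0.52, with probe 1 at background.

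**Figure D4:**
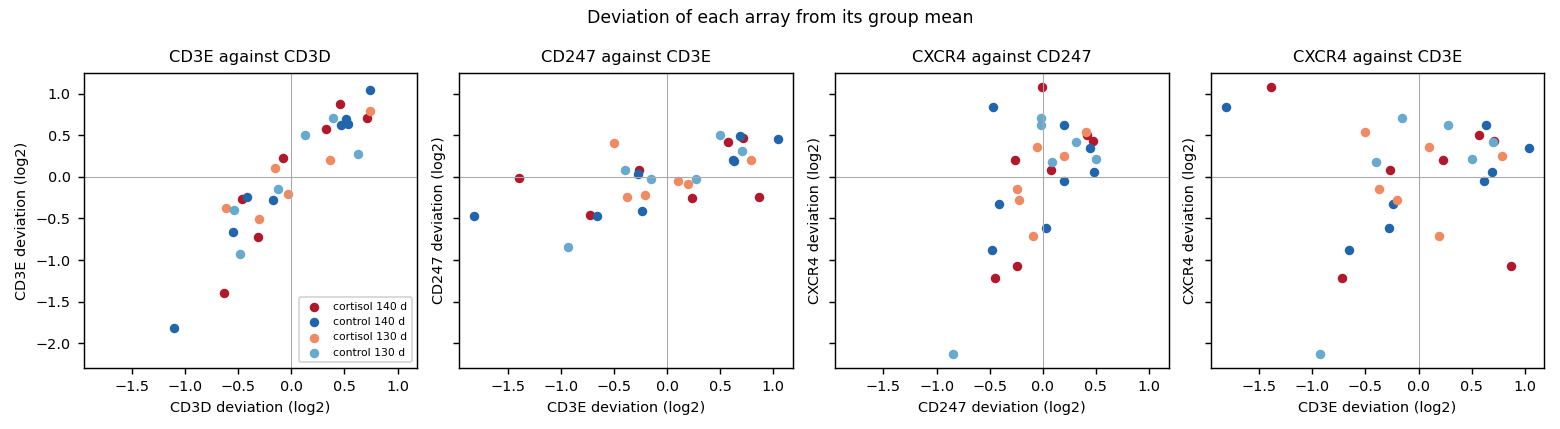
Deviation of each array from its group mean (both axes, log2) for pairs of members, with 1 point per fetus coloured by group. CD3D and CD3E lie along a line from replicate 2 of the controls at 140 d at the lower left, while CXCR4 scatters against CD3E.

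Some fetuses stood apart from their group for several members at once. Replicate 2 of the controls at 140 d deviated from its group mean by -1.1 for CD3D, -1.81 for CD3E and -0.47 for CD247, but by 0.84 for CXCR4, and replicate 2 of the cortisol fetuses at 140 d had the same signs. Replicate 2 of the controls at 130 d was below its group mean for all 4 genes, with -2.13 for CXCR4. Of the 27 arrays, 8 were above their group mean for all 4 genes, 6 were below it for all 4 and 13 had both signs.

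Members aside, the named genes most like each one, out of 699 with a value on every array, were taken by Pearson r over the 27 arrays. For CD3D they were CD5, a surface protein of T cells (r = 0.64), TPSB2, a mast cell tryptase (0.64), and LOC443442, listed as a CD1 gene (0.63), whose probe was well above background on 12 arrays. For CD3E they were HBB, the beta chain of haemoglobin (0.69), IGFBP2, a binding protein of insulin-like growth factors (0.67), and SMAD2, a mediator of transforming growth factor beta signals (0.66). None of the genes named for CD3D came near the r of 0.93 between CD3D and CD3E. Probes without a matched gene name, or lacking a value on any array, were not ranked, so a closer gene among them would be missed.

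For CD247 they were FZD2, a Wnt receptor (0.77), ASPM, a mitotic spindle protein (0.74), and LMNB1, a nuclear lamina protein (0.73). For CXCR4 they were NOS2, the inducible nitric oxide synthase (0.74), CD40, a receptor of antigen-presenting cells (0.74), and CD93, a receptor of endothelial and myeloid cells (0.73). For IFNG they were LEP, the fat cell hormone leptin (0.86), BARX2, a homeobox factor (0.83), and MLN, the gut hormone motilin (0.79). After group means were taken away these r lay between 0.51 and 0.70.

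Other genes of the T cell were sparsely covered. Of 35 listed genes of the receptor complex and T cell signalling 9 were on the array, and 7 were tested, since CD4 was not well above background on any array and CD28 was on too few. LCK, the kinase named above, fell between the ages in controls by 1.26 ± 0.40 in log2 level (SE, adjusted p = 0.0273). It averaged -5.72 ± 1.22 at 140 d and -4.46 ± 0.42 at 130 d (SD). At 140 d LCK was well above background on 7 of 8 controls, and the lowest stood at -8.58. LCK was the only 1 of the 7 called in any comparison, and 9.35% of all tested probes were called lower between the ages in controls. A probe of CD3G, the gamma chain of CD3, had -1.44 ± 0.60 in that comparison (SE, adjusted p = 0.0861), and LCK in the cortisol arm had -1.08 ± 0.43 (SE, adjusted p = 0.0952). For cortisol against control the 7 genes had 0 calls at 140 d (smallest adjusted p 0.808) and at 130 d (1.00), and their medians were -0.11 and -0.19.

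The variable chains were mostly not detected. The array carries 45 probes described as T cell receptor beta, gamma or delta chain sequences, 14 of which were never above background, and 14 were tested. The tested ones were 4 of 15 beta, 2 of 6 gamma and 8 of 24 delta probes. Between the ages with cortisol 1 delta chain probe fell, by 0.58 ± 0.17 in log2 level (SE, adjusted p = 0.0280), a count of 1 of 14 that is near the 8.52% of all tested probes called lower there, and 0 of 14 passed in each other comparison. The medians of the 14 were -0.19 for cortisol against control at 140 d, 0.02 at 130 d, -0.17 between the ages with cortisol and -0.11 in controls. Whether these probes share transcripts was not tested.

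**Figure D5:**
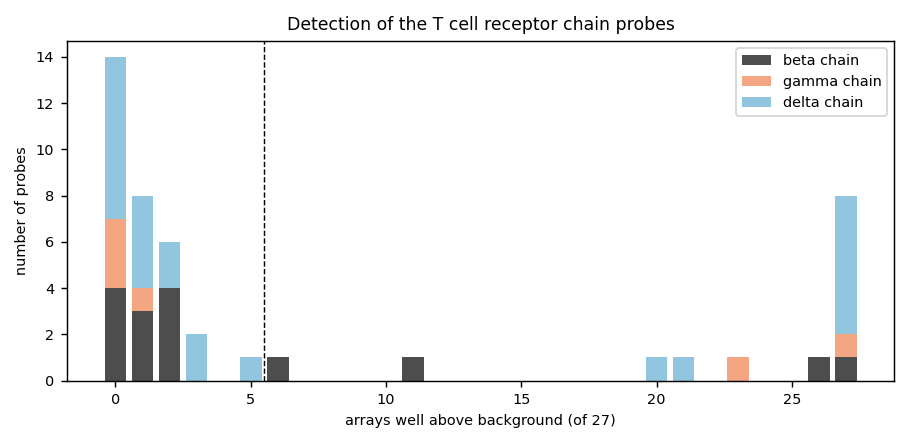
Number of T cell receptor chain probes (y axis) by the number of arrays on which they were well above background (x axis, of 27), stacked by chain. Probes right of the dashed line were tested. Of the 45 probes, 14 stand at 0 arrays and 8 at all 27.

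Genes of T and natural killer cell effectors had 11 of 26 listed genes on the array and 6 tested, and IL4, IL13 and IL12B were never above background. Between the ages in controls 3 of the 6 fell, where 9.35% of all tested probes were called lower. TNF, an inflammatory cytokine, had -1.50 ± 0.35 (SE, adjusted p = 0.00500), and IL10, an anti-inflammatory cytokine, had -1.76 ± 0.27 (SE, adjusted p = 0.000228). IL10 was well above background on 4 of 8 controls at 140 d and 6 of 6 at 130 d, so its size rests partly on values near background. IL18, an inducer of IFNG in T cells, had -1.50 ± 0.38 for its brightest probe (SE, adjusted p = 0.00760). Of the other IL18 probes, 1 was also called lower (-1.04, adjusted p = 0.0449) and 1 had 0.07 (adjusted p = 0.810), so 2 of the 3 probes of that gene were called. TNF also fell in the cortisol arm, by 1.33 ± 0.36 (SE, adjusted p = 0.0163), the only 1 of the 6 there, against 8.52% of all tested probes called lower. None of the 6 passed for cortisol against control (smallest adjusted p 0.808 at 140 d and 1.00 at 130 d).

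Of 21 listed genes of chemokine receptors and homing, 3 were on the array and 2 tested. ITGB2, the shared beta chain of the leukocyte integrins, fell between the ages in controls by 1.02 ± 0.24 in log2 level (SE, adjusted p = 0.00462). Of all tested probes 9.35% were called lower in that comparison, and 8.52% between the ages with cortisol. ITGA4, an integrin chain for entry into tissue, was called lower between the ages with cortisol (adjusted p = 0.0124), at least 1.55-fold. The size is a bound, since the probe was well above background on 0 of 7 older cortisol fetuses and on 6 of 6 younger ones. In controls that probe had -0.47 (adjusted p = 0.105). The other ITGA4 probe was well above background on 6 arrays. It was called lower with cortisol (-1.24, adjusted p = 0.0406) and in controls (-1.37, adjusted p = 0.0160). FCER1G, a signalling chain of Fc receptors related to the zeta chain, fell in controls by 1.16 ± 0.31 (SE, adjusted p = 0.0123) and had 0.09 ± 0.32 with cortisol (SE, adjusted p = 0.898), and the difference between the arms did not pass (1.24, adjusted p = 0.563). Of 17 listed B cell genes 1, CR2, was tested, and its smallest adjusted p over the comparisons was 0.119. Of 70 probes described as immunoglobulin chains 30 were tested and 0 were called in each comparison, with a smallest adjusted p of 0.0510, between the ages in controls.

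Some markers of other blood cells fell between the ages in controls. Of the 6 T cell markers tested, 1 was called lower there, LCK, and 1 between the ages with cortisol, CD247. The summed linear level of 6 T cell markers (CD3D, CD3E, CD3G, CD247, CD5 and LCK), in units of the array's 75th percentile, ranged from 0.170 to 0.443 in cortisol fetuses and from 0.177 to 0.534 in controls at 140 d, against 0.317 to 0.673 in cortisol fetuses and 0.309 to 0.805 in controls at 130 d. The sum of 5 myeloid markers (CD14, ITGAM, ITGB2, FCER1G and LYZ) ranged from 0.664 to 2.27 with cortisol and from 0.518 to 0.805 in controls at 140 d, against 0.650 to 1.26 with cortisol and 0.792 to 2.59 in controls at 130 d. Of these 5, 3 fell between the ages in controls, where 9.35% of all tested probes were called lower. They include ITGB2 and FCER1G, whose values are those given above and not separate observations. In the cortisol arm 0 of the 5 passed (8.52%). For the difference between the arms 0 of 5 passed (smallest adjusted p 0.560).

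The sum of 2 red blood cell markers, HBB and AHSP, ranged from 1.58 to 33.6 with cortisol and from 3.02 to 28 in controls at 140 d, against 19.0 to 43.6 with cortisol and 16.8 to 56.4 in controls at 130 d. Both fell between the ages in controls, where 9.35% of all tested probes were called lower. Neither marker passed with cortisol (smallest adjusted p 0.0769), where 8.52% were called lower, or for the difference between the arms (0.974). Of 3 endothelial markers, PECAM1, TIE1 and KDR, 0 passed in any comparison. No gene of the listed B cell markers or of the thymus and lymph node markers was named on the array. The part of blood content in the values of the T cell genes was not tested.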

How the data were processed

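Heart septum RNA of 27 fetuses was labelled with Cy3 and measured on 1-colour Agilent arrays, per the labels. The deposited scanner files hold processed intensity values from which the software had taken background, with no scaling among arrays, per the file headers. The submitters' processing notes name the software as Agilent Feature Extraction 10.1.1.1. The flags for spots well above background are also deposited there as 0 or 1 per spot. The authors' deposited table holds log2 values, each column being the log2 intensity less a constant of that array (residual SD at most 2.1e-06), with column medians of 0.086 to 0.12. The origin of the constant is not given in the sources used here. The genome build is not given there either.

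Levels were log2 of the processed intensity minus each array's 75th percentile, with control spots and outlying spots left out and repeated spots averaged. The 12770 of 15008 probes that 6 or more arrays showed well above background were tested. All 4 groups entered 1 fit of limma 3.58.1 (lmFit, eBayes; R 4.3.3), without a batch term, and p-values were 2-sided and adjusted by Benjamini-Hochberg over all tested probes. Probes were named through RefSeq accession (727 probes), symbol (484), gene identifier (139) or older symbol (20) in the RefSeq table of assembly ARS-UI_Ramb_v3.0, whose coordinates are not used here. The code was tested on simulated data. Probes below the filter had exact permutation tests (scipy 1.17.1).

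The members and the gene lists were chosen with earlier results of these data known. A gene of the interferon gamma list is not reported here, and the list's counts leave it out. All member probes are named. Of a list, up to 3 genes past the threshold per direction are named, by smallest p, each by its probe of highest mean. Where none passed, the gene of smallest p is named in most cases. For each member the 3 named genes of highest Pearson r are named.

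There were 5 slides, and slides 2 to 4 held all groups. Alternatives were normexp (offset 50), quantile and median scaling, the authors' table, other filters, slide as a block and within slides, the replicate number as a block, only the groups compared, gene means of probes, and each array left out. The number of arrays limits the precision, and fetuses are the replicates.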

Additional observations from a re-analysis of the deposited data

Results flagged for a closer look

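CXCR4 stood apart on 1 array. In controls at 130 d replicate 2 had -3.96 for probe 1 and -4.20 for probe 2, while the other 5 arrays lay between -1.98 and -1.41 for probe 1 and between -1.89 and -1.36 for probe 2. The spot was well above background for both probes. IFNG probe 1 had -5.99 in replicate 3 of the controls at 140 d, against -8.39 to -7.83 on the other 7 arrays, and was not well above background on any of them. These were 3 of 40 combinations of a probe and a group whose gap to the nearest array was too large for its group's range (Dixon's 95% critical value), where chance gives about 5% of groups. The 2 CXCR4 probes share most of their bases and count as 1 case.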

How the results depend on the processing

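For cortisol against control 0 member probes were called at either age under every alternative run, and 0 for the effect at 140 d minus that at 130 d. IFNG probe 2 was the 1 call between the ages in controls, and 0 were called with normexp and within slides 2, 3 and 4. With 1 array left out there were 1 to 3 calls, the added ones being CXCR4 without control 130 d replicate 2. Between the ages with cortisol the 2 calls became 0 with normexp, quantile scaling and within slides 2 and 3, and 1 with median scaling, the authors' table, probes above background on all arrays, and gene means of probes, where CD247 has 1 value. They ranged from 0 to 2 with 1 array left out. CD247 probe 2 then had -1.01 to -0.74 and missed the threshold without cortisol 130 d replicate 1, 4 or 5 or cortisol 140 d replicate 3, 4 or 6, and probe 1 had -0.80 to -0.64. Within slide 4, which holds 1 cortisol array at 140 d, assumed to vary like the other groups, CXCR4 had -2.53 and -2.18 and passed the threshold. IFNG probe 1 passed in 1 of 4 exact tests, 2 with median scaling and 0 in limma without a filter. With normexp 536 probes in all were called between the ages in controls (2442 as reported) and 339 with cortisol (1719 as reported). Median scaling moved the share called higher to 70.6% in controls and 63.8% with cortisol (51.1% and 36.7% as reported).

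Replicate numbers are shared by the groups, and 17 of 25 same-numbered pairs of arrays lay on the same slide, but they deviated together with r of -0.17 to 0.36, over 0.1 in 7 of the 25, so the numbers were not taken to pair the samples. With that replicate block 3 member probes were called between the ages with cortisol, CD3E probe 1 being added (-0.89, adjusted p = 0.0470), 1 in controls (IFNG, 0.72) and 0 for cortisol against control, and CD247 had -0.76 and -0.95.

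Differences that were not called changed sign as follows. With normexp cortisol against control at 130 d gave 0.18 and 0.20 for the CXCR4 probes, 0.45 and 0.34 for CD3D, 0.39 and 0.47 for CD247 and 0.11 and 0.35 for CD3E. At 140 d it gave 0.036 and 0.028 for CD3D, between the ages in controls 0.10 and 0.10 for CD3D, 0.11 and 0.21 for CD247 and 0.070 for CD3E probe 2, and with cortisol -0.093 for IFNG. Within slide 2 cortisol against control at 130 d gave 0.84 and 0.94 for CXCR4, 0.091 for CD3D probe 1, 0.39 and 0.32 for CD247 and 0.060 and 0.19 for CD3E, at 140 d 0.33 for CD3D probe 1, and between the ages in controls 0.48 and 0.59 for CXCR4. Within slide 3 cortisol against control at 140 d gave 0.56 and 0.32 for CXCR4, 0.027 for CD3D probe 2 and 0.043 for CD3E probe 1, between the ages with cortisol 0.10 for CXCR4 probe 1 and 0.039 for CD3D probe 2, and the difference of effects 0.35 and 0.11 for CD247. Within slide 4 cortisol against control at 130 d gave 0.0096 for CD247 probe 1 and 0.13 for CD3E probe 1, between the ages in controls 0.31 and 0.041 for CD3D, 0.21 and 0.043 for CD247 and 0.32 and 0.15 for CD3E, and with cortisol -0.25 for IFNG. With 1 array left out CD247 probe 1 ranged from -0.25 to 0.016 for cortisol at 130 d, and IFNG probe 2 from -0.028 to 0.12 between the ages with cortisol. Slides hold 2 arrays or fewer of most groups. The causes were not tested. All member probes lie below the 75th percentile of intensity, and IFNG probe 1 was not well above background on any array.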
